A study of Mus musculus with 16 samples.

Results

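Mammalian cells burn fatty acids by β-oxidation, a spiral of reactions that runs in mitochondria and, for very long and branched chains, in peroxisomes. The 34 mouse genes described here encode its enzymes and carriers, together with the receptor and kinase that set its use. They form a list of names to which no threshold on the values was applied. The list was, however, chosen with earlier results of these data known, so counts over it are descriptions. Of the 34, 33 were measured among 19938 genes, and Acsl1, a long-chain acyl-CoA synthetase, has no probe set carrying its symbol alone. By role they fall into 18 genes of the mitochondrial spiral, 6 peroxisomal genes, 7 acyl-CoA synthetases and thioesterases of which 6 were measured, and a group of 3 made of the receptor Ppara, the fatty acid carrier Fabp1 and the kinase Pdk4.

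RNA was hybridised to 16 arrays from mice in which reprogramming factors can be switched on with doxycycline (Dox) and from the tumors that follow when the factors are switched off early. The groups of 3 arrays each were secondary kidney tumors, grown under the skin of immunodeficient mice after transplantation, primary kidney tumors, normal kidney, primary liver tumors and normal liver, beside 1 array of ES cells of the 129xC57BL6 F1 background. For the kidney tumors the mice received Dox at 4 weeks of age for 7 days and the tumors were taken 7 days after withdrawal, and normal kidney was of the same age; the labels give no age for the liver groups or the secondary tumors. All mice derived from the ES cell line, on a 129xC57BL6 F1 or mixed background, and the tumors arose in chimeric mice, so that they may hold ICR host cells; no label says whether the normal tissues carried the factors, whether they were exposed to Dox, or whether the arrays of a group came from separate animals. The p-values below therefore measure the spread between these arrays, which may be technical.

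Fatty acids enter the mitochondrial spiral as acyl-CoA, which is passed through the inner membrane as carnitine ester and then shortened by repeated dehydrogenation, hydration, dehydrogenation and thiolysis, with electrons leaving through the electron transfer flavoprotein. Hepatocytes and the proximal tubule cells of the kidney are among the tissues that rely most on this supply. PPARα, the nuclear receptor encoded by Ppara, binds fatty acids and is known in liver, heart and kidney to switch on many of the genes listed here, including Fabp1, Pdk4, Ehhadh and Pex11a.

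Values are log2 of the deposited intensities, on which a difference of 1 is a doubling, and one gene's level cannot be set against another's because each has its own probes. Array medians lay between 191 and 226 intensity units, and over all genes and arrays the 10th percentile of the level was 5.55 and the median 8.01 on the log2 scale, so that members near 5 to 6 lie close to the bottom of the range, where true folds are compressed. Proximal tubule markers (9 genes) summed to 1725 to 2273 intensity units in secondary tumors, 17764 to 34071 in primary kidney tumors, 74911 to 80322 in normal kidney, 4678 to 5317 in liver tumors and 4027 to 9727 in normal liver, against 1701 in ES cells. Hepatocyte markers (8 measured, some also expressed in tubules) summed to 58126 to 79224 in liver tumors and 91091 to 93017 in normal liver, and to 25209 to 26098 in normal kidney. Both sums were thus highest in the normal organ of their name, secondary tumors had lost the tubule signal, and Umod and Slc34a1, kidney genes, reached 9.40, 8.56 and 6.78 and 11.29, 9.54 and 7.75 log2 units in normal liver arrays 1, 2 and 3. Adipocyte genes (6 measured) summed to 8080 in secondary tumor 1, 9838 in normal kidney 2 and 10552 in normal liver 1, against 553 to 1817 elsewhere, and 6 muscle genes to 12459 in secondary tumor 1, against at most 1299 in any other array. Brown adipocyte genes (3 measured) summed to 3186 in normal liver 1, against at most 416 in any other array. The part of these signals in the member levels was not tested. Proliferation genes (5 measured) summed to 8706 to 9899 in secondary tumors, 7658 to 13087 in kidney tumors and 522 to 617 in normal kidney, and to 7526 to 11310 in liver tumors and 2672 to 5233 in normal liver. Xist split both primary tumor groups: it was 5.60 in kidney tumor 1 but 10.84 and 10.19 in kidney tumors 2 and 3 (5.65 to 5.86 in normal kidney), and 5.88 in liver tumor 1 but 10.45 and 11.35 in liver tumors 2 and 3 (5.79 to 5.99 in normal liver). The Y-linked gene Eif2s3y had 10.04, 9.18 and 7.80 in kidney tumors 1, 2 and 3 (9.75 to 10.07 in normal kidney). It had 10.09, 8.91 and 8.43 in liver tumors 1, 2 and 3 (9.99 to 10.10 in normal liver). Whether these tumors mixed male and female cells was not tested.

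**Figure D1:**
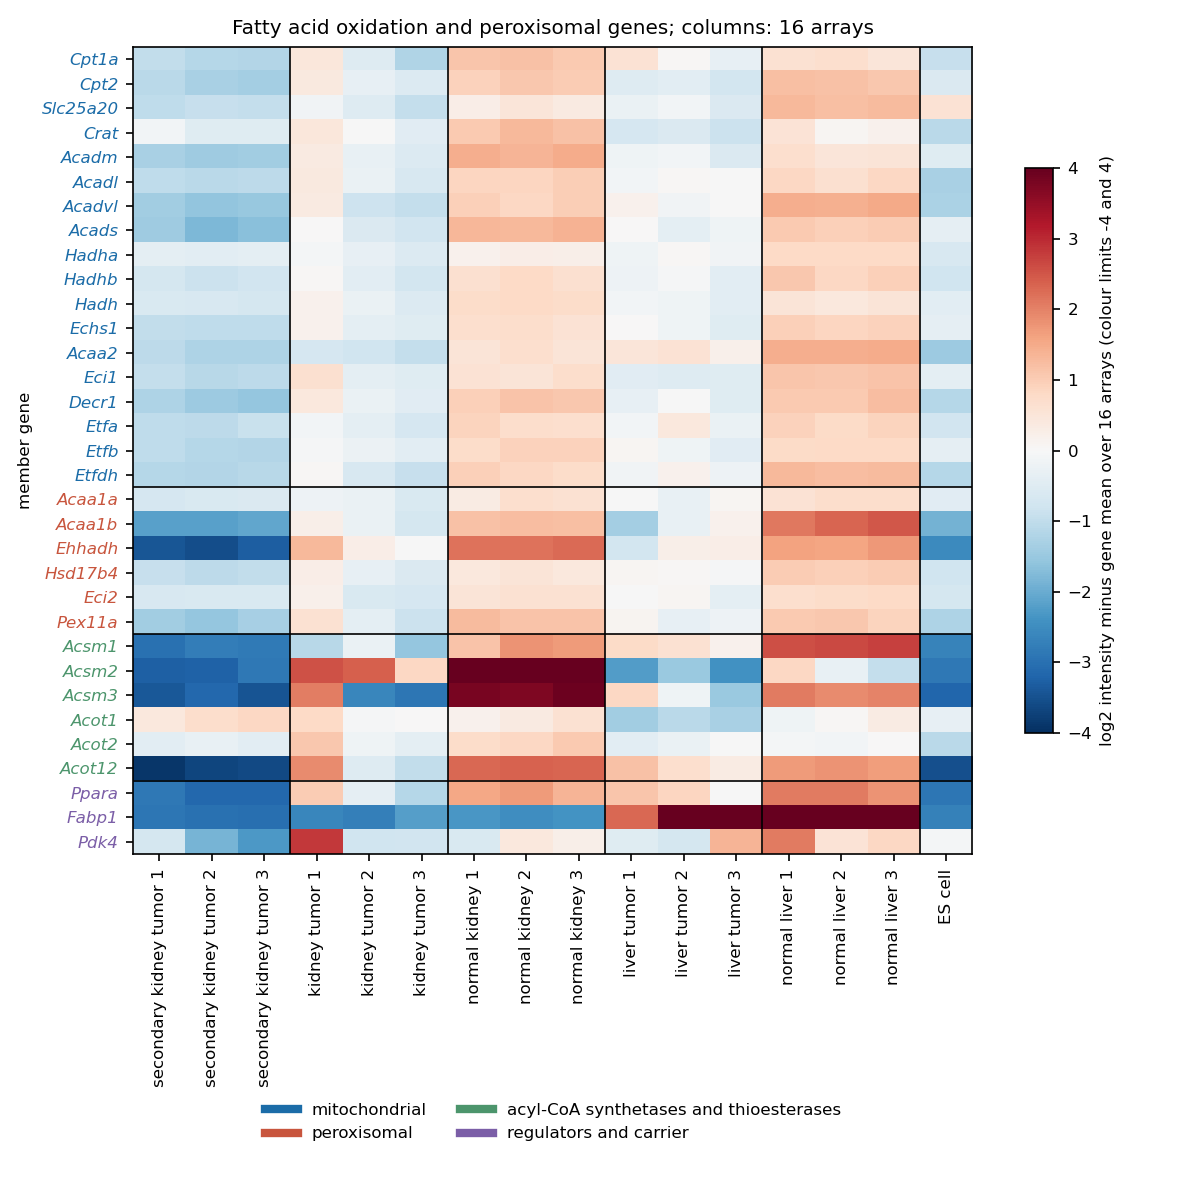
Level of each of the 33 measured genes (rows, coloured by role) in each of the 16 arrays (columns), as log2 intensity minus the gene's mean over all arrays, with colours capped at -4 and 4. Most rows are red in normal kidney and normal liver, paler in primary tumors and blue in the 3 secondary kidney tumors and the ES cell array, and the column of kidney tumor 1 is redder than those of kidney tumors 2 and 3.

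The first comparison asked how the primary kidney tumors differ from normal kidney of the same age. Fatty acid oxidation genes were lower in the tumors at nearly every step: 29 of the 33 fell and none was called higher at an adjusted p under 0.05 (limma, all genes tested), where 28.1% of all genes were called lower and 21.7% higher. The median log2 change of the members was -1.16, which leaves 44.8% of the normal level, beside a median of -0.11 over all genes. Losses of at least 2-fold were found for 21 members, and in 28 every tumor array lay below every normal array, against 8.03% and 39.3% of all genes. Centring each array on its median gave 8118 lower and 3606 higher calls over all genes in place of 5600 and 4322, and 30 members were then called lower. All 18 mitochondrial and all 6 peroxisomal genes fell, as did 4 of the 6 measured synthetases and thioesterases and, of the receptor, carrier and kinase, Ppara. In whole tissue, fewer cells of a type and less RNA per cell cannot be told apart, and the tubule sum given above moved with these genes. So did 7 genes of the loop, distal tubule and collecting duct, which summed to 9236 to 20158 in kidney tumors and 32953 to 36869 in normal kidney, while 6 myeloid genes summed to 7359 to 8781 in kidney tumors and 2232 to 2859 in normal kidney. Their part in the result was not tested.

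Among the regulators, Ppara had 10.46, 9.08 and 8.31 log2 units in kidney tumors 1, 2 and 3, against 10.995, 11.14 and 10.80 in normal kidney. All 3 tumors lay below all 3 normal kidneys, tumor 1 only narrowly, and the change was -1.69 ± 0.42 (adjusted p = 0.00428). Pdk4, a kinase that turns off pyruvate dehydrogenase and so spares glucose when fat is burned, had 12.23, 8.59 and 8.63 in the tumors, against 8.79, 9.81 and 9.63 in normal kidney. Tumor 1 was far above every normal kidney and the other two tumors were below all of them, so the groups overlapped and the difference of 0.41 ± 0.88 did not pass (adjusted p = 0.713). Fabp1, the liver-type carrier, lay near the bottom of the range in both groups, at 5.34, 5.23 and 5.75 in kidney tumors and 5.62, 5.47 and 5.55 in normal kidney, and no change was detectable (-0.11 ± 0.37).

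At the entry to mitochondria, Cpt1a, the outer-membrane carnitine palmitoyltransferase that controls the rate of import, had 11.82, 10.87 and 10.19 in kidney tumors, against 12.50, 12.56 and 12.43 in normal kidney. Each tumor was below each normal array, but tumor 1 had lost far less than tumor 3, and the change was -1.54 ± 0.31 (adjusted p = 0.00114). Its partner at the inner membrane, Cpt2, changed by -1.16, the carnitine-acylcarnitine carrier Slc25a20 by -0.91 and the carnitine acetyltransferase Crat by -1.20 on the log2 scale.

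The acyl-CoA dehydrogenases, which carry out the first step of each turn for different chain lengths, fell for all chain lengths, most for short and medium chains. Acads, for short chains, had 10.79, 10.18 and 10.01 in kidney tumors, against 12.09, 12.07 and 12.16 in normal kidney (-1.78 ± 0.17, adjusted p = 3.17e-06). Acadm, for medium chains, had 12.15, 11.51 and 11.26 in kidney tumors, against 13.27, 13.16 and 13.27 in normal kidney (-1.59 ± 0.18, adjusted p = 1.35e-05). In both genes the normal kidneys lay close together and the tumors were spread over a wider range below them. Acadvl and Acadl, for very long and long chains, changed by -1.39 and -1.08.

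The later steps fell too. Hadha, the alpha subunit of the trifunctional protein that handles long chains, showed the smallest loss among the 18 mitochondrial genes (-0.53 ± 0.10), whereas its beta subunit Hadhb changed by -1.06. The hydratase Echs1, the dehydrogenase Hadh and the thiolase Acaa2 changed by -0.88, -0.99 and -1.38. Of the auxiliary enzymes needed for unsaturated chains, the reductase Decr1 had 10.82, 10.15 and 9.96 in kidney tumors, against 11.38, 11.55 and 11.50 in normal kidney, and was clearly below in all 3 tumors (-1.17 ± 0.19). The isomerase Eci1 had 10.99, 9.96 and 9.87 in kidney tumors, against 10.94, 10.86 and 11.06 in normal kidney. Tumor 1 was inside the normal range, and the call (-0.68 ± 0.21, adjusted p = 0.0171) was lost when kidney tumor 2, kidney tumor 3 or normal kidney 3 was left out, when the kidney groups were fitted alone and after quantile normalization. Both subunits of the electron transfer flavoprotein, Etfa and Etfb, and its dehydrogenase Etfdh changed by -1.14, -1.09 and -1.34.

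In peroxisomes, Ehhadh, the bifunctional enzyme of the inducible pathway, had 11.89, 10.85 and 10.56 in kidney tumors, against 12.76, 12.75 and 12.87 in normal kidney (-1.69 ± 0.30, adjusted p = 0.000448). Acaa1b, a peroxisomal thiolase, had 8.84, 8.35 and 7.89 in kidney tumors, against 9.78, 9.82 and 9.81 in normal kidney (-1.44 ± 0.31, adjusted p = 0.00159). Pex11a, a membrane protein that promotes peroxisome division, had 10.40, 9.41 and 8.95 in kidney tumors, against 11.05, 10.95 and 10.94 in normal kidney (-1.39 ± 0.26). For all 3 genes no tumor reached a normal kidney, and kidney tumor 1 was the highest of the tumors. Hsd17b4, the other bifunctional enzyme, had 11.03, 10.43 and 10.18 in kidney tumors, against 11.19, 11.29 and 11.20 in normal kidney, a smaller loss (-0.68 ± 0.15) in which tumor 1 stood just below the normal arrays. Acaa1a, a close paralog of Acaa1b with which its probes could share signal, and Eci2, an isomerase also found in mitochondria, changed by -0.90 and -0.94.

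The widest changes were in the medium-chain acyl-CoA synthetases, which activate fatty acids and other acids inside mitochondria. Acsm3 had 11.16, 6.50 and 6.21 in kidney tumors, against 12.91, 12.84 and 13.03 in normal kidney. Tumors 2 and 3 were near the bottom of the measurable range while tumor 1 kept an intermediate level, so the change of -4.97 ± 0.98 (adjusted p = 0.000923) averages very unlike arrays. Acsm1 had 7.83, 8.66 and 7.39 in kidney tumors, against 10.08, 10.72 and 10.64 in normal kidney (-2.52 ± 0.27), and here tumor 2 was the highest of the 3. Acsm2 had 11.41, 11.26 and 9.70 in kidney tumors, against 13.25, 13.20 and 13.13 in normal kidney (-2.41 ± 0.46). Acot12, a cytosolic enzyme that cleaves acetyl-CoA, had 11.96, 9.54 and 9.07 in kidney tumors, against 12.34, 12.43 and 12.38 in normal kidney, with tumor 1 close to normal and the others far below (-2.20 ± 0.53). The paired thioesterases Acot1 (cytosolic) and Acot2 (mitochondrial), whose sequences are nearly alike and whose probes may share signal, gave -0.12 ± 0.21 and -0.69 ± 0.28 and were not called (adjusted p = 0.659 and 0.0556); without kidney tumor 1, Acot2 changed by -1.15 (adjusted p = 1.16e-05).

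**Figure D2:**
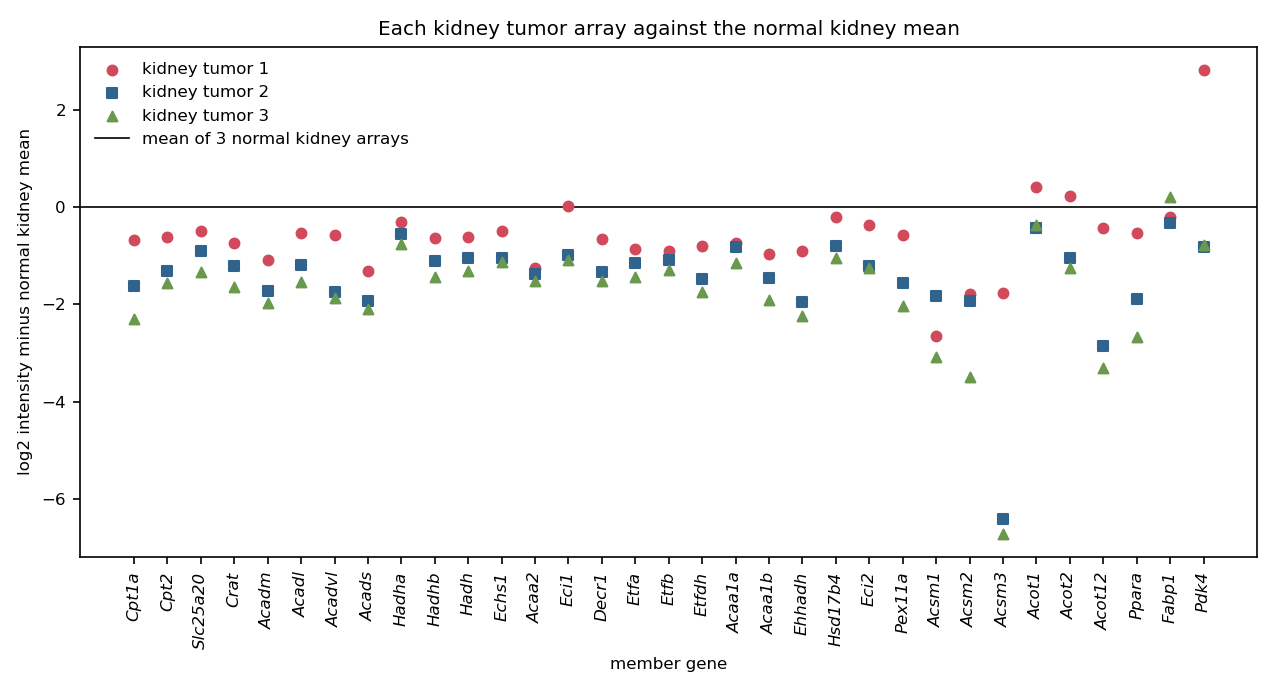
Log2 intensity of each measured gene (x axis) in kidney tumors 1, 2 and 3 (circles, squares and triangles) minus the mean of the 3 normal kidney arrays, which is the line at 0. Kidney tumor 1 is the top point for 31 of the 33 genes, the exceptions being Acsm1 and Fabp1, and the 3 tumors are farthest apart in Acsm3.

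The primary kidney tumors differed among themselves in one direction. Kidney tumor 1 had the highest level of the 3 for 31 of the 33 members (93.9%), against 38.5% of all genes, and exceeded the mean of tumors 2 and 3 by a median of 0.77 log2 units. Against the normal kidney mean, the median member stood at -0.61 in tumor 1, -1.21 in tumor 2 and -1.52 in tumor 3, and 29, 33 and 32 of the 33 members were below normal. The gap was widest in Acsm3, Pdk4, Acot12, Ppara and Acot2, at 4.80, 3.62, 2.66, 1.76 and 1.37 log2 units. The mean log2 level of the 7 loop, distal tubule and collecting duct genes had the same order (10.86, 10.20 and 9.66 in tumors 1, 2 and 3), while that of the 9 proximal tubule genes was highest in tumor 2 (11.52, 11.68 and 10.66). The Y-linked genes Eif2s3y (10.04, 9.18 and 7.80) and Uty (9.45, 8.94 and 8.18) also ran in the order of the members. What these orders have to do with each other was not tested. With kidney tumors 2 and 3 left out, 21 members were called lower and their median change was -0.61. These are 3 arrays of one label, and the order was seen after the values were known.

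Secondary tumors, passaged under the skin, were compared with normal kidney to see how far the loss went. It spanned nearly all members: 30 of 33 members fell and none was called higher (limma), where 38.7% of all genes were called lower and 29.9% higher. The median log2 change was -1.94, leaving 26% of the normal level, beside -0.12 over all genes; 29 members lost at least 2-fold and in 32 all secondary tumors lay below all normal kidneys, against 11.1% and 46.2% of all genes. With arrays centred on their medians, 10774 genes were called lower and 4578 higher in place of 7720 and 5962, and the same number of members, 30, was called lower. The 3 secondary tumors gave medians of -1.86, -1.97 and -1.94 against the normal kidney mean. Secondary tumor 1, with its fat and muscle signal, thus had about the same median as the others, but a median does not show single members. Pdk4 had 8.70 in secondary tumor 1, against 7.53 and 7.11 in the others, and the part of the fat and muscle signal in this was not tested. Acot1, Fabp1 and Pdk4 were not called, at 0.28 ± 0.21, -0.56 ± 0.37 and -1.63 ± 0.88. For Fabp1 and Pdk4, however, all secondary tumors lay below all normal kidneys, and both were called lower when these groups were fitted alone (adjusted p = 0.000313 and 0.0131) and with array weights (0.0207 and 0.012). The tubule markers were at levels like those of the ES cell array, 7.38, 7.30 and 7.24 against 7.35 as means of log2 intensity. Other markers were higher, 6 fibroblast genes summing to 17758 to 22584 in secondary tumors and 3786 to 4570 in normal kidney, and 5 neural genes to 14917 to 19438 in secondary tumors and 586 to 689 in normal kidney; their part in the member changes was not tested.

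**Figure D3:**
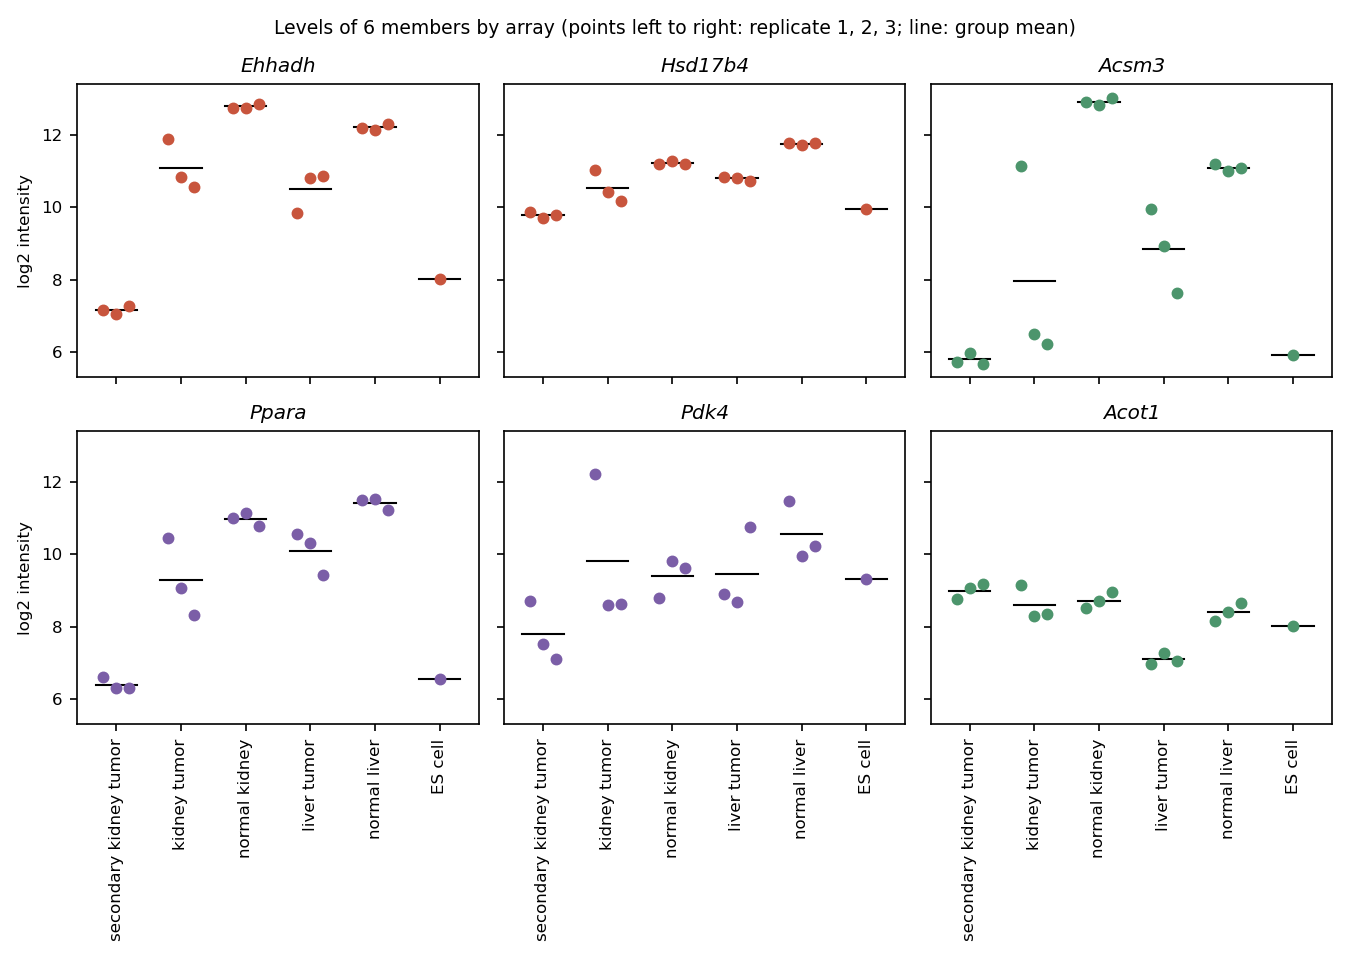
Log2 intensity of 6 genes (panels) in each array, with groups on the x axis, replicates 1 to 3 from left to right within a group, and the group mean as a line. Ehhadh and Ppara are in the secondary tumors at or below the ES cell level, Hsd17b4 spans a narrower range, Acsm3 is split between kidney tumor 1 and the other kidney tumors, Pdk4 scatters in every tissue, and Acot1 is lower in liver tumors than in any other group.

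The 5 largest losses were in Acsm2, Acsm3, Acot12, Ehhadh and Ppara, while the peroxisomal genes Acaa1a (-1.17 ± 0.13), Eci2 (-1.19 ± 0.19) and Hsd17b4 (-1.44 ± 0.15) lost less than the median member. Ppara had 6.59, 6.29 and 6.30 in secondary tumors, against 10.995, 11.14 and 10.80 in normal kidney (-4.58 ± 0.42, adjusted p = 7.07e-07). Ehhadh had 7.16, 7.05 and 7.27 in secondary tumors, against 12.76, 12.75 and 12.87 in normal kidney, a 49.6-fold loss (adjusted p = 7.81e-09). Acaa1b had 6.43, 6.42 and 6.53 in secondary tumors, against 9.78, 9.82 and 9.81 in normal kidney (-3.34 ± 0.31). In each of these genes the 3 secondary tumors were tightly grouped and several log2 units below normal. Ppara and Acaa1b lay near the bottom of the range there, where both changes and spread may be compressed. Pex11a had 8.41, 8.25 and 8.48 in secondary tumors, against 11.05, 10.95 and 10.94 in normal kidney (-2.60 ± 0.26). Acsm2 had 5.58, 5.62 and 6.01 in secondary tumors, against 13.25, 13.20 and 13.13 in normal kidney (-7.46 ± 0.46, adjusted p = 2.5e-08). Acsm3 had 5.73, 5.97 and 5.67 in secondary tumors, against 12.91, 12.84 and 13.03 in normal kidney (-7.14 ± 0.98). Both synthetases were near the bottom of the range in every secondary tumor, so these changes may understate the loss. Acot12 and Acsm1 changed by -6.05 and -4.41, with secondary tumor means of 6.33 and 6.07, also near the bottom of the range.

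All 18 genes of the mitochondrial spiral were called lower, with a median change of -1.84 and a range of -2.96 to -0.62. The dehydrogenases again led: Acads had 9.35, 8.98 and 9.10 in secondary tumors, against 12.09, 12.07 and 12.16 in normal kidney (-2.96 ± 0.17, adjusted p = 1.25e-08). Acadm had 10.49, 10.37 and 10.40 in secondary tumors, against 13.27, 13.16 and 13.27 in normal kidney (-2.81 ± 0.18, adjusted p = 3.66e-08). Decr1 had 9.17, 8.96 and 8.86 in secondary tumors, against 11.38, 11.55 and 11.50 in normal kidney (-2.48 ± 0.19). For these 3 genes no secondary tumor came within 2 log2 units of a normal kidney. Hadha again showed the smallest loss (-0.62 ± 0.10). The carnitine shuttle changed by -2.25 for Cpt2, -2.21 for Cpt1a, -1.55 for Crat and -1.34 for Slc25a20.

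Set against the primary kidney tumors, the secondary tumors were lower still in 21 of 33 members and higher in none (limma), where 17.4% of all genes were called lower and 18.5% higher. The median change was -0.86 (all genes, -0.07), 12 members lost at least 2-fold, and in 23 all secondary tumors lay below all primary tumors, against 4.36% and 32.6% of all genes. With centred arrays the calls over all genes were 4921 lower and 3132 higher in place of 3475 and 3693, and 23 members were called lower. By role, 13 of 18 mitochondrial, 4 of 6 peroxisomal and 3 of 6 synthetase and thioesterase genes fell, as did Ppara, which had 6.59, 6.29 and 6.30 in secondary tumors, against 10.46, 9.08 and 8.31 in primary tumors (-2.89 ± 0.42). Ehhadh separated the groups most among peroxisomal genes (-3.94 ± 0.30, adjusted p = 4.83e-07), every secondary tumor being over 3 log2 units below the lowest primary tumor, followed by Acaa1b (-1.90 ± 0.31) and Pex11a (-1.21 ± 0.26). Acsm2 (-5.05 ± 0.46), Acot12 (-3.85 ± 0.53), Acadm (-1.22 ± 0.18), Acads (-1.18 ± 0.17) and Decr1 (-1.31 ± 0.19) were likewise below in every array. Pdk4 had 8.70, 7.53 and 7.11 in secondary tumors, against 12.23, 8.59 and 8.63 in primary tumors. The groups overlapped only through secondary tumor 1, the array with fat and muscle signal, and the difference of -2.04 ± 0.88 did not pass. The call count moved with kidney tumor 1: without it 18 members were called lower and Acot1 was called higher, and without kidney tumor 3 it was 28 lower. Over all genes, the fits that left out single arrays gave 2536 to 3256 lower and 3197 to 3477 higher calls in this comparison. The counts without kidney tumor 1 and without kidney tumor 3 lie in these ranges and are not given by themselves.

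The single ES cell array allows a description with no test. Levels in secondary tumors lay close to it: the secondary tumor mean was within 1 log2 unit of the ES cell value for 30 of 33 members and within 0.5 for 21, with a median difference of -0.20. The exceptions, all lower in secondary tumors, were Slc25a20 (-1.55), Pdk4 (-1.55) and Acads (-1.26). The corresponding median difference was 0.58 for primary kidney tumors, 1.91 for normal kidney, 0.82 for liver tumors and 1.74 for normal liver. Over the 6 kinds of sample, the lowest mean of a member was in secondary tumors for 24 genes, in ES cells for 8 and in liver tumors for Acot1 alone. The highest was in normal liver for 19, normal kidney for 13 and secondary tumors for Acot1. None of the counts in this paragraph was taken over all genes, so they do not show anything particular to the members. Acsm1, Acsm2, Acsm3, Acot12, Fabp1 and Ppara were near the bottom of the range in both kinds of sample. They had 5.25 to 6.55 in ES cells and means of 4.99 to 6.39 in secondary tumors, where small differences carry little information.

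**Figure D4:**
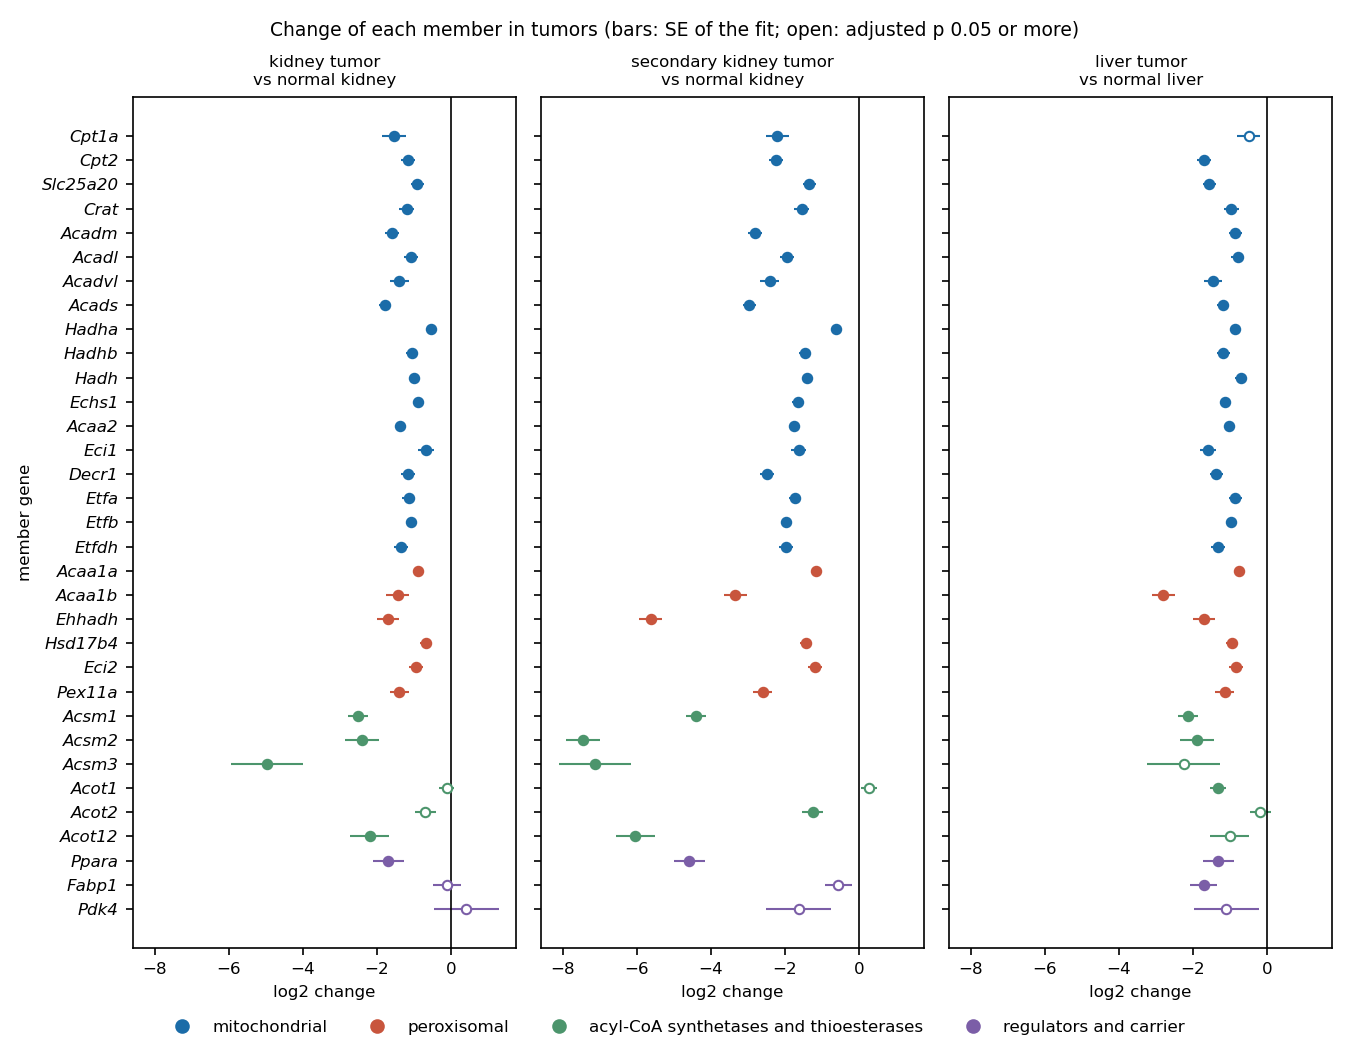
Log2 change of each measured gene in 3 comparisons (panels), with the standard error of the limma fit as bars, colours for role and open symbols where the adjusted p was 0.05 or more. Nearly all filled points lie left of 0 in all panels, with the longest distances in Acsm2, Acsm3, Acot12, Ehhadh and Ppara in secondary kidney tumors.

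Primary liver tumors were compared with normal liver to learn whether these genes are low in a second organ. Most were: 28 of 33 members fell and none was called higher (limma), where 30.7% of all genes were called lower and 21.5% higher. The median log2 change was -1.14 (45.3% of the normal level left), beside -0.13 over all genes; 18 members lost at least 2-fold and in 30 every tumor lay below every normal liver, against 4.97% and 37.2% of all genes. With centred arrays 10389 genes were called lower and 3141 higher in place of 6123 and 4296, and 29 members were called lower. The fall covered 17 of 18 mitochondrial genes, all 6 peroxisomal genes, 3 of 6 synthetases and thioesterases, and both Ppara and Fabp1. Called lower in both organs were 26 members, which is 89.7% of the 29 in kidney and 92.9% of the 28 in liver. With so many of the 33 called in each organ, most must be shared, and the overlap was not counted over all genes. Cpt1a, Acot12 and Acsm3 were called in kidney tumors alone and Fabp1 and Acot1 in liver tumors alone. Hepatocyte genes moved with the members: 4 of the 8 measured were called lower, 3 at least 2-fold. Their sum given above was lower in every tumor than in every normal liver, and their mean log2 level was 12.40 to 13.17 against 13.40 to 13.43. Single genes differed: Alb was 13.75, 13.54 and 13.74 in liver tumors and 13.80, 13.89 and 13.76 in normal liver. Ttr was 13.24, 13.35 and 13.42 in liver tumors and 13.87, 13.88 and 13.90 in normal liver. Both lie near the top of the range, where changes may be compressed. The part of the hepatocyte genes in the result was not tested. The 3 tumors gave member medians of -0.98, -1.08 and -1.27 against the normal liver mean.

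Ppara had 10.57, 10.32 and 9.43 in liver tumors, against 11.51, 11.54 and 11.23 in normal liver, below in every array (-1.32 ± 0.42, adjusted p = 0.0185); the call was lost without liver tumor 3, without normal liver 2, or without normal kidney 2 and normal liver 1 together. Fabp1, a major cytosolic protein of hepatocytes, had 10.24, 12.27 and 11.93 in liver tumors, against 13.16, 13.27 and 13.16 in normal liver (-1.72 ± 0.37, adjusted p = 0.00209). Liver tumor 1 was the lowest by a wide margin, though all 3 tumors were below all 3 normal livers. Pdk4 had 8.91, 8.69 and 10.76 in liver tumors, against 11.47, 9.96 and 10.23 in normal liver; the groups overlapped and -1.10 ± 0.88 did not pass.

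In liver the mitochondrial members with the largest estimated losses were Cpt2, Eci1 and Slc25a20. Cpt2 had 10.11, 10.20 and 9.88 in liver tumors, against 11.83, 11.79 and 11.69 in normal liver (-1.71 ± 0.19, adjusted p = 1.32e-05). Eci1 had 9.91, 9.85 and 9.89 in liver tumors, against 11.47, 11.44 and 11.51 in normal liver (-1.59 ± 0.21, adjusted p = 6.16e-05). Slc25a20 had 9.88, 10.05 and 9.58 in liver tumors, against 11.44, 11.33 and 11.39 in normal liver (-1.56 ± 0.17). All 3 were lower by more than 1 log2 unit in each tumor. Cpt1a, whose product controls import in liver, had 11.97, 11.44 and 11.05 in liver tumors, against 11.998, 12.06 and 11.88 in normal liver. Liver tumor 1 was inside the normal range, and -0.49 ± 0.31 did not pass (adjusted p = 0.197), the only mitochondrial member of which this was so. Acadm, Acads and Decr1 changed by -0.85, -1.19 and -1.37.

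Among peroxisomal genes, Acaa1b had 7.24, 8.29 and 8.77 in liver tumors, against 10.71, 10.92 and 11.08 in normal liver (-2.81 ± 0.31, adjusted p = 1.35e-05). Ehhadh had 9.84, 10.82 and 10.86 in liver tumors, against 12.19, 12.15 and 12.30 in normal liver (-1.71 ± 0.30). Pex11a had 9.90, 9.46 and 9.60 in liver tumors, against 10.83, 10.87 and 10.70 in normal liver (-1.14 ± 0.26). Liver tumor 1 had the lowest Acaa1b and Ehhadh but the highest Pex11a of the tumors. Of the synthetases, Acsm1 had 9.68, 9.55 and 9.11 in liver tumors, against 11.52, 11.57 and 11.65 in normal liver (-2.13 ± 0.27). Acsm3 had 9.95, 8.94 and 7.63 in liver tumors, against 11.19, 11.01 and 11.08 in normal liver; the arrays did not overlap, but -2.25 ± 0.98 did not pass (adjusted p = 0.0698). Acot1 had 6.95, 7.28 and 7.04 in liver tumors, against 8.17, 8.40 and 8.66 in normal liver, a fall in every tumor (-1.32 ± 0.21, adjusted p = 0.000274), while Acot2 (-0.18 ± 0.28) and Acot12 (-1.01 ± 0.53) did not pass. Acot12 had 11.22, 10.72 and 10.37 in liver tumors, against 11.77, 11.84 and 11.73 in normal liver, again without overlap. The standard errors of Acsm3 and Acot12 are pooled over all groups, and the SD among kidney tumors was 2.78 and 1.55 for these genes, against 1.16 and 0.42 among liver tumors; with the liver groups fitted alone both passed (adjusted p = 0.017 and 0.0104). Acsm2 was called lower (-1.90 ± 0.46), but its normal liver values of 9.68, 8.56 and 7.92 in arrays 1, 2 and 3 ran in the same order as the kidney genes Umod and Slc34a1 given above, whose part in this result was not tested.

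Since Ppara is among the members that fell, promoters of the members were searched for the core element AGGTCA, which PPARα and other nuclear receptors read as repeats spaced by 1 base. RefSeq promoter windows (GRCm38.p6, 250 bases before to 50 after a gene's first listed start) were found for 30 of the 34 members, and none for Crat, Decr1, Acaa2 and Hsd17b4. On either strand, AGGTCA was present in 7 of 30 (23.3%), against 16.04% of 27025 promoters: Acadm, Acadvl, Acot12, Acsm1, Cpt1a, Echs1 and Fabp1. The exact repeat AGGTCANAGGTCA was in 0 of 30 members and 0.0444% of all promoters, and the looser AGGNCANAGGNCA was in 1 of 30 members and 0.381% of all promoters. The form TNAAGGTCA was in 0 of 30 members and 1.26% of all promoters. The promoters of 3 genes are printed in lower case from 5′ to 3′ on the plus strand with every match in capitals (TGACCT is AGGTCA read on the other strand): Fabp1 because it holds the looser repeat AGGCCATAGGTCA, starting 67 bases before the start site and overlapping its own AGGTCA, and Acsm1 and Acot12 because they hold AGGTCA and fell by over 2 log2 units in kidney tumors. A match is a run of letters and not a shown binding site.
Fabp1, chr6:71199629-71199928, plus strand: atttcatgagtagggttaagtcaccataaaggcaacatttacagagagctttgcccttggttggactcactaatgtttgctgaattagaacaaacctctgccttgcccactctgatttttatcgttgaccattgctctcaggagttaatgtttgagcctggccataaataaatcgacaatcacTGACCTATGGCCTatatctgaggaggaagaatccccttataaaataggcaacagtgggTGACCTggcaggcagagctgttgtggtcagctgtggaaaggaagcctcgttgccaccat
Acsm1, chr7:119617562-119617861, plus strand: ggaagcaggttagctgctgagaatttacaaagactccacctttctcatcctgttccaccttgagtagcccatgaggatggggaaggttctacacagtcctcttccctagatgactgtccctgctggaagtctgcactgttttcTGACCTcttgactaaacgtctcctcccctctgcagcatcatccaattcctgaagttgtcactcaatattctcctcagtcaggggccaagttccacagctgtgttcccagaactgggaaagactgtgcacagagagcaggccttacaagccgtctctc
Acot12, chr13:91741271-91741570, plus strand: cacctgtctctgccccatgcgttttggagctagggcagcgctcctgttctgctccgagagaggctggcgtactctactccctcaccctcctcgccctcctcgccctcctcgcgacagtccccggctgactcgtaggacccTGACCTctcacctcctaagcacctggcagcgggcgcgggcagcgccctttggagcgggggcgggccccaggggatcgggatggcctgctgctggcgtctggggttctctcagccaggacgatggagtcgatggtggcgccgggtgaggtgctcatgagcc

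Fabp1, printed because of its looser repeat, was also the gene with the widest gap between the normal tissues. Whether the repeat has any part in that gap was not tested, and a repeat in 1 gene cannot show it. Acsm1 and Acot12 were printed because of their fall in kidney tumors, so that fall says nothing about their matches. Both were also lower in secondary tumors than in normal kidney. The 7 genes with AGGTCA had kidney tumor changes of -1.59 ± 0.18 (Acadm), -1.39 ± 0.25 (Acadvl), -2.20 ± 0.53 (Acot12), -2.52 ± 0.27 (Acsm1), -1.54 ± 0.31 (Cpt1a), -0.88 ± 0.15 (Echs1) and -0.11 ± 0.37 (Fabp1), from no detectable change to losses of over 2 log2 units. Fabp1 lay near the bottom of the range in both kidney groups, where a loss could hardly show. Members without AGGTCA were not set beside these genes, so the values say nothing about the element.

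**Figure D5:**
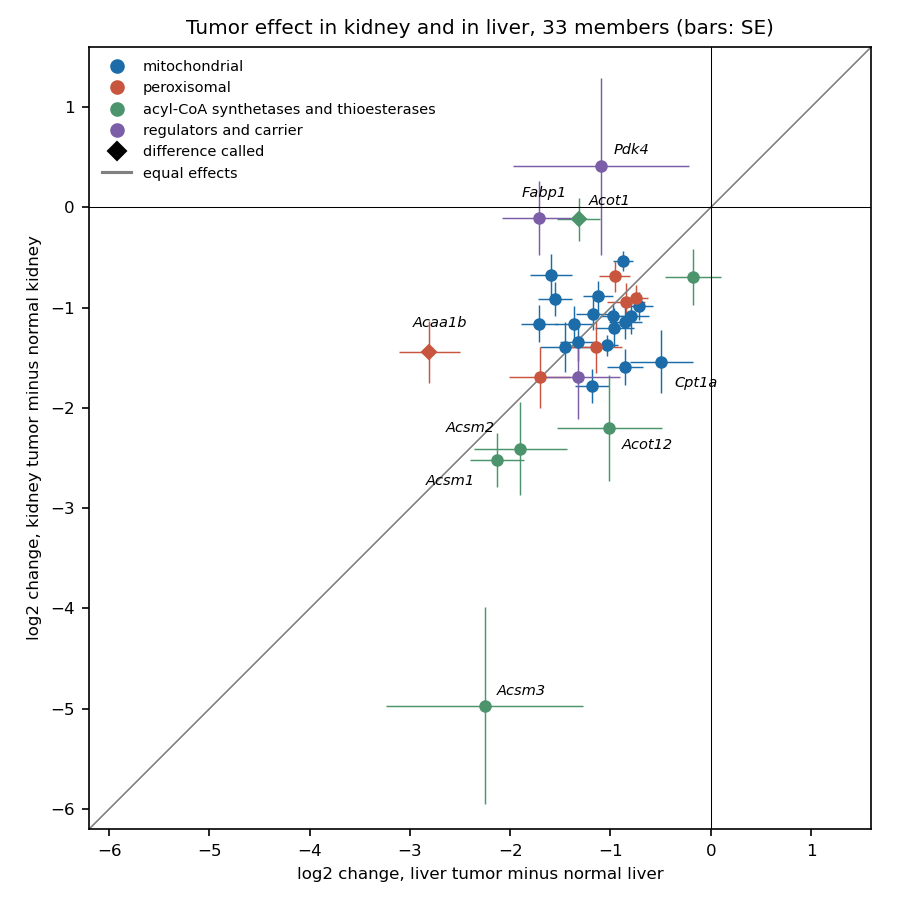
Log2 change of each measured gene in liver tumors against normal liver (x axis) and in kidney tumors against normal kidney (y axis), with standard errors as bars, colours for role, and a grey line where both are equal. Acot1 and Acaa1b, drawn as diamonds, are the genes whose difference between the organs was called. The Acaa1b call did not survive most alternatives. Acsm3 lies far below the line with a wide error.

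Whether the tumor effect differed between kidney and liver was tested as the kidney change minus the liver change. Of 33 members, 2 were called with a smaller loss in kidney and none with a larger one (limma), where 7.54% of all genes were called higher and 9.26% lower in this difference. Acot1 fell in liver tumors but had 9.14, 8.30 and 8.36 in kidney tumors, against 8.51, 8.69 and 8.95 in normal kidney, so that the difference was 1.20 ± 0.30 (adjusted p = 0.016). Acaa1b fell in both organs and more in liver, with a difference of 1.36 ± 0.43 (adjusted p = 0.0482), a call that did not survive most alternatives. Fabp1 (1.61 ± 0.52, adjusted p = 0.0524) and Eci1 (0.91 ± 0.30, adjusted p = 0.0544) fell just short. Cpt1a (-1.05 ± 0.44), Acadm (-0.74 ± 0.26) and Acsm3 (-2.72 ± 1.39) had larger losses in kidney that did not pass, with unadjusted 95% intervals of -2.002 to -0.09, -1.30 to -0.18 and -5.72 to 0.29. Hsd17b4 and Pex11a differed by 0.27 ± 0.22 and -0.25 ± 0.37, and Pdk4 by 1.51 ± 1.24. The count depended on kidney tumor 1: without it 9 members were called with a larger loss in kidney. Over all genes, the fits that left out single arrays gave 1394 to 2460 calls in that direction. The count in the fit without kidney tumor 1 lies in this range and is not given by itself.

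Between the normal tissues the members were near balance. In normal kidney against normal liver, 7 of 33 were lower and 4 higher (limma), where 16.4% of all genes were called lower and 21.4% higher, and the median difference was -0.12 (-0.04 over all genes). In 16 members every kidney array lay below every liver array and in 12 above, against 28.2% each of all genes. Fabp1 had 5.62, 5.47 and 5.55 in normal kidney, against 13.16, 13.27 and 13.16 in normal liver, the widest gap (-7.65 ± 0.37, adjusted p = 4.27e-09). Acsm2 had 13.25, 13.20 and 13.13 in normal kidney, against 9.68, 8.56 and 7.92 in normal liver, the widest gap in the other direction (4.47 ± 0.46, adjusted p = 5.1e-06). Both genes separated the tissues completely.

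Crat had 11.55, 11.81 and 11.68 in normal kidney, against 11.03, 10.59 and 10.65 in normal liver (0.92 ± 0.20), and Acadm was also higher in kidney (0.87 ± 0.18). Acaa2 had 12.38, 12.53 and 12.35 in normal kidney, against 13.30, 13.30 and 13.32 in normal liver (-0.89 ± 0.10), and Slc25a20 (-0.88 ± 0.17) and Hadha (-0.58 ± 0.10) were also lower. Of peroxisomal genes, Acaa1b (-1.10 ± 0.31) and Hsd17b4 (-0.53 ± 0.15) were lower in kidney, and Ehhadh (0.58 ± 0.30) was not called. Acsm1 was lower (-1.10 ± 0.27) and Acot2 higher (0.92 ± 0.28) in kidney, with the Acot2 call lost when normal kidney 3 or normal liver 2 was left out, while Acsm3 (1.83 ± 0.98), Ppara (-0.45 ± 0.42) and Pdk4 (-1.15 ± 0.88) did not pass. These non-calls rest on an error that includes the spread among tumors: with the normal groups fitted alone, 12 members were called lower and 10 higher in kidney, among them Acsm3 (adjusted p = 2.22e-06) and Ppara (0.0196), and all Acsm3 values in normal kidney (12.91, 12.84 and 13.03) were above those in normal liver (11.19, 11.01 and 11.08). Calls over all genes in that fit are not given here, and the main shares of 16.4% and 21.4% do not apply to it. Every gene called between the normal tissues in the main fit was higher or lower in all 3 kidney arrays than in all 3 liver arrays.

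Genes of the same pathways outside the 34 were counted in the same fits, in which 28.1%, 38.7% and 30.7% of all genes were called lower, and 21.7%, 29.9% and 21.5% higher, in kidney, secondary and liver tumors. Of 19 other peroxisomal oxidation genes measured, 16 fell in kidney tumors, 17 fell and 1 rose in secondary tumors against normal kidney, and 15 fell in liver tumors. Amacr, the racemase for branched chains, and Acox2, an oxidase for branched chains and bile acid precursors, changed by -2.60 and -2.54 in kidney tumors, Slc27a2 and Pecr by -5.56 and -4.67 in secondary tumors, and Nudt7 and Pecr by -3.34 and -2.29 in liver tumors. All 12 peroxins measured, the proteins that build peroxisomes, fell in each of the 3 comparisons, with medians of -0.73 in kidney tumors, -0.85 in secondary tumors and -0.90 in liver tumors; Pex7, the receptor for one class of imported enzymes, changed by -1.36 in kidney tumors and -1.86 in secondary tumors, and Pex16 by -1.48 in liver tumors. Of 16 other peroxisomal enzymes, 11, 12 and 13 fell in kidney, secondary and liver tumors, including Ephx2 (-2.75) in kidney tumors, the amino acid oxidase Dao (-6.60) in secondary tumors and the hydroxyacid oxidases Hao2 (-2.15) and Hao1 (-2.14) in liver tumors, where 2 of the 16 rose.

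Among 18 other mitochondrial genes of fatty acid and branched-chain amino acid breakdown, 13 fell and 3 rose in kidney tumors, 15 fell and 2 rose in secondary tumors, and 14 fell and 2 rose in liver tumors. Ivd, the isovaleryl-CoA dehydrogenase of leucine breakdown, changed by -1.95 in kidney tumors and -1.75 in liver tumors, and Slc22a5, the plasma membrane carnitine transporter, by -3.66 in secondary tumors. Of 3 ketone body genes, all fell in both kidney tumor groups and 2 in liver tumors, Bdh1 changing by -2.08, -2.37 and -1.35 in kidney, secondary and liver tumors. Nuclear receptors and coactivators of the pathway fell for 7 of 9 genes in kidney tumors, 9 of 9 in secondary tumors and 6 of 9 in liver tumors: Ppargc1a, the coactivator PGC-1α, changed by -1.89 in kidney tumors and -2.06 in secondary tumors, Hnf4a by -5.43 in secondary tumors, and Creb3l3 by -1.49 in liver tumors.

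Lists beside the pathway were mixed. Of 10 other known PPARα targets, 5 fell and 1 rose in kidney tumors, 7 fell in secondary tumors and 2 fell in liver tumors, the last a smaller share than over all genes. Cyp4a14, a fatty acid omega-hydroxylase, was higher in kidney tumors (2.08) and lower in liver tumors (-5.04), and the difference between the organs was 7.12 (adjusted p = 6.17e-06); its relative Cyp4a10 changed by -6.07 in secondary tumors and -2.46 in liver tumors. Fatty acid synthesis, the opposing pathway with 9 genes measured, had 2 lower and 3 higher in kidney tumors, 2 lower and 4 higher in secondary tumors, and 7 lower and 1 higher in liver tumors. The desaturase Scd2 rose in all 3, by 1.55, 1.96 and 2.11, and Me1, which supplies reducing power for synthesis, changed by -1.95 in kidney tumors and -2.80 in secondary tumors. Of 6 other fatty acid binding proteins, Fabp5 and Fabp7 rose in kidney tumors (2.68 and 1.73) and secondary tumors (3.20 and 2.78), while Fabp3 fell in kidney tumors (-1.51) and Fabp3 and Fabp6 in secondary tumors (-1.89 and -0.25). In liver tumors Fabp7 rose (0.87) and Fabp2 and Fabp6 fell (-1.03 and -0.43). Of 5 other genes controlling pyruvate dehydrogenase, 3 fell and 1 rose in kidney tumors and in secondary tumors, and 2 fell and 2 rose in liver tumors; Pdk2 changed by -1.92 in kidney tumors and -2.81 in secondary tumors, and Pdk3 by 2.60 in liver tumors.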

How the data were processed

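Biotin-labelled total RNA was hybridised to Affymetrix arrays, per the labels' protocols. The authors deposited 1 linear intensity per probe set and array (28856 probe sets, 16 arrays, intensities from 20.7 to 20262); how they corrected background, summarised probes and normalised arrays is not given in the sources used here. The submitters' processing notes name the mouse build mm9. No detection call was used, so folds of dim genes are compressed.

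Deposited intensities were taken to log2. The platform annotation gave 21789 probe sets 1 symbol, 1621 several and 5446 none; where a symbol had several probe sets (999 genes), that of highest mean stood for it, which left 19938 genes. Groups came from the sample labels. A limma 3.58.1 model in R 4.3.3 was fitted to all genes and 16 arrays with 1 coefficient per group (10 residual degrees of freedom, empirical Bayes without trend), with Benjamini-Hochberg adjustment over all genes within each of 6 comparisons, a call at an adjusted p under 0.05, two-sided. Errors after ± are standard errors of that fit; because the spread is pooled over groups, they are too small where one group varies more, as the kidney tumors do. The script was tested on simulated data.

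The members and gene lists were chosen with earlier results of these data known, so counts over them are descriptions. Arrays are listed for, per comparison, the 3 mitochondrial and 3 peroxisomal members and the 2 of each other role with the largest absolute change, and members called against their role's direction; from each other list the 2 called genes of largest change could be named. Not all such genes are printed. Some other list genes were not analysed here. Alternatives covered scaling, probe set choice, filtering, the fit, the threshold and left-out arrays.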

Additional observations from a re-analysis of the deposited data

Results flagged for a closer look

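For 2 of the 33 members the tumor effect was called different between the organs (limma, kidney change minus liver change on the log2 scale). Over all genes 7.54% were called higher and 9.26% lower in this difference, so the members were not called more often than other genes. Acot1, a cytosolic acyl-CoA thioesterase, changed by -0.12 ± 0.21 in kidney tumors and by -1.32 ± 0.21 in liver tumors, a difference of 1.20 ± 0.30 (adjusted p = 0.016). Over all alternatives this difference stayed between 0.93 and 1.74 with an adjusted p between 0.00345 and 0.0444, and it missed the stricter threshold of 0.01. Acaa1b, a peroxisomal thiolase, changed by -1.44 ± 0.31 in kidney tumors and by -2.81 ± 0.31 in liver tumors, a difference of 1.36 ± 0.43 (adjusted p = 0.0482). Its call was lost when kidney and liver groups alone were fitted (adjusted p = 0.0831), after quantile normalization (0.06), at the 0.01 threshold, when any normal array, kidney tumor 1, kidney tumor 2 or liver tumor 2 was left out, and in a further fit given with the other alternatives, with an adjusted p between 0.0115 and 0.107 over all alternatives. Both genes have close paralogs among the members, Acot2 and Acaa1a, with which their probes may share signal; this was not tested.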

How the results depend on the processing

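No member called in secondary tumors against normal kidney lost its call under any alternative run. Counts of members called lower stayed at 28 to 30 for kidney tumors, 30 to 30 for secondary tumors and 27 to 29 for liver tumors, each against normal tissue, when single arrays were left out, and at 18 to 28 for secondary against primary kidney tumors; counts called higher stayed at 0 to 0 in the first 3 and at 0 to 1 in the last. For normal kidney against normal liver they were 7 to 7 lower and 3 to 4 higher, and for the kidney minus liver effect 0 to 9 lower, 9 without kidney tumor 1, and 1 to 5 higher. Over all genes the same fits gave 1394 to 2460 lower and 1127 to 2113 higher in that effect difference, with the fit without kidney tumor 1 not given by itself. Without kidney tumors 2 and 3 (the lone array assumed to vary like the other groups), Eci1 turned to 0.0342, Acaa1b, Acot12, Cpt1a, Eci2, Hadha, Hsd17b4 and Ppara lost their calls, 1 member (Pdk4) was called higher in kidney tumor 1 and 9 in the kidney minus liver effect. Fitting the compared groups alone gave 12 lower and 10 higher between normal tissues, and 1 higher in the effect difference, with no counts over all genes given here. Array weights gave 8 higher between normal tissues, 6 lower and 6 higher in the effect difference, and 1 higher (Acot1) in secondary against primary tumors. They also added lower calls for Acadvl, Eci1 and Etfdh between normal tissues, and for Acaa1a, Cpt1a, Crat, Hadhb and Slc25a20 in secondary against primary tumors. With array weights, counts over all genes between normal tissues and lower counts in the effect difference are not given here. In the effect difference, quantile normalization and the replicate block each gave 1 lower and 1 higher, centred arrays 5 higher, leaving out the 33.3% dimmest genes or an intensity trend 4 higher, an adjusted p under 0.01 gave 0 higher, and leaving out normal kidney 2 and normal liver 1 gave 1 higher. Same-numbered arrays of compared groups shared no deviation throughout (correlations from -0.278 to 0.15), so the numbers were not taken as pairs. Under the block, Acaa1b lost its call in the effect difference (limma, adjusted p = 0.0673) and Acadm gained 1 as lower (adjusted p = 0.0462). The block changed no member call in the other comparisons. Centring moved the median change of all genes to -0.24 in kidney, -0.35 in secondary and -0.33 in liver tumors, each against normal tissue, and -0.16 in secondary against primary tumors. Over all genes, calls in place of the main counts were 4808 lower in secondary tumors and 3796 lower in liver tumors without the dimmest genes; 5994 lower in secondary against primary tumors with array weights, and 2067 at 0.01; 3772 lower in liver tumors and 2182 lower between normal tissues at 0.01; and 3082 lower and 2633 higher in kidney tumors without tumors 2 and 3. For the effect difference they were 2528 higher with array weights, 935 lower and 735 higher at 0.01, and 924 lower and 768 higher without kidney tumors 2 and 3. Why any of these moved was not tested. Signal limits Acsm1, Acsm2, Acsm3, Acot12, Acaa1b, Fabp1 and Ppara where they lay near the bottom of the range, and 3 arrays per group limit every error.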
